A study of Mus musculus with 16 samples.

Results

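Interferon response genes were followed in the hippocampus of mice lacking the amyloid precursor protein APP, its relative APLP2, or both. The genes were the 9 symbols Ifi27, Rsad2, Bst2, Ifit1, Ifit3, Irf7, Isg15, Usp18 and Oasl2, and every probe set that the array's annotation pairs with 1 of these symbols alone was taken. This gave 11 of the 45101 probe sets, for 8 of the 9 genes (18194 genes had such a probe set in all): 2 for Ifi27, 3 for Rsad2 and 1 for each of the other 6. The probe set that carries Isg15 is annotated to a second gene, Gm9706, as well, so Isg15 has no value here. RNA of 16 samples from male mice, all aged 2 months and of the strain given as C56/BL6, was measured on Affymetrix arrays, 4 per genotype. WT was wild type, APP_KO lacked APP and APLP2_KO lacked APLP2. N_dCKO is labelled as lacking both genes and, by its title, is a neuronal double conditional knockout. Neither the Cre driver of N_dCKO nor the cells that carried its deletion are named by the labels. The samples are numbered 1 to 4 within a group, and no label says that each was a separate animal, so the p-values rest on a spread between samples that may be technical.

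Interferons are cytokines of antiviral defence. Type I interferons bind the receptor pair IFNAR1 and IFNAR2, whose JAK kinases signal through STAT2, and this acts with IRF9 at the interferon-stimulated response element (ISRE) in the promoters of responding genes. In brain, microglia, endothelium, astrocytes and neurons can all respond, and a low tonic signal keeps part of the set transcribed without infection. Among the genes followed here, IRF7 is the transcription factor that amplifies interferon production. IFIT1 and IFIT3 act on foreign RNA, RSAD2 (viperin) makes an antiviral nucleotide, BST2 (tetherin) holds budding virions at the cell surface, and OASL2 belongs to the oligoadenylate synthetase family. ISG15 is a ubiquitin-like modifier, and USP18 removes it from proteins and dampens signalling at the type I receptor. IFI27 is a small membrane protein strongly induced by interferon.

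The ISRE letters of the promoters are shown first, because they are what several of these genes have in common besides their signals. RefSeq promoters (assembly GRCm38.p6, 250 bases before to 50 after a gene's start) were searched on both strands for the core of the ISRE, which is GAAA, any 2 bases and GAAA again, or TTTC, any 2 bases and TTTC on the other strand. The letters occurred in 1131 of 32851 promoters, or 3.44%. Of the 9 genes, 7 had an entry and 5 of these held a match, while the entries of Irf7 and Oasl2 held none in this window. Windows of 60 bases from the promoters of the 4 genes with both a match and a signal value follow, 5′ to 3′ on the gene's strand, with the matches in capitals.
Rsad2: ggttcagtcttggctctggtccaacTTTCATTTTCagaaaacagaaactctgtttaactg
Bst2: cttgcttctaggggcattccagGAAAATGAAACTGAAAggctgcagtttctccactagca
Ifit1: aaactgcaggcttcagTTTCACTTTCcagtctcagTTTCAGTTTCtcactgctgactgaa
Ifit3: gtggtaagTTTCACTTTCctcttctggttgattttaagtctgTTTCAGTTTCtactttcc
The Rsad2 window is chr12:26456538-26456597 on the minus strand, with 1 match. The Bst2 window is chr8:71537565-71537624 on the minus strand, with 2 matches that overlap. The Ifit1 and Ifit3 windows are chr19:34640769-34640828 and chr19:34583365-34583424, both on the plus strand, with 2 separate matches each. A match describes the letters of the window and does not show that a factor binds there.

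Signals were compared with limma on log2(signal + 9), over all genes bright enough to test, and a gene was called at an adjusted p below 0.05 (Benjamini-Hochberg over 11665 genes). Genes whose mean log2 signal lay below 6.60, the median over all probe sets (a signal of 88.2), were not tested. Of the 8 genes with a probe set, 6 passed that filter (Ifi27, Rsad2, Bst2, Ifit3, Irf7 and Usp18), and Ifit1 and Oasl2 did not. For Ifit1, Oasl2 and the additional probe sets of Ifi27 and Rsad2, values come from a second limma fit over all 45101 probe sets without a filter. Fold changes are on the log2(signal + 9) scale, which understates the change of dim genes. Values after ± are SD of the 4 arrays for signals and SE for fold changes.

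App and Aplp2 read low where the genotype labels say they should, though where their probes lie relative to the deletions is not known here. App had a mean signal of 18499 ± 1098 in WT, 2511 ± 180 in APP_KO and 2191 ± 195 in N_dCKO, and Aplp2 had 5984 ± 229 in WT, 1162 ± 276 in APLP2_KO and 998.5 ± 122 in N_dCKO (n = 4 each). Markers of hippocampal neurons had a mean log2 signal of 12.4 to 12.6 on all 16 arrays, as the tissue label implies. The choroid plexus markers (10 of 10 on the array) set N_dCKO apart. On N_dCKO arrays 1, 2 and 4 their mean log2 signal was 5.56, 6.09 and 6.18. N_dCKO array 3 had 8.71, and WT, APP_KO and APLP2_KO together ranged from 8.62 to 10.1. In N_dCKO their summed signal ran from 702 to 36907, and in WT from 31926 to 37057. Most of that sum was Ttr on N_dCKO array 3 (34285) and in WT (26344 to 33519). The other markers on N_dCKO array 3 lay below every WT array, such as Clic6 (399 against 573 to 1490) and Folr1 (385 against 526 to 1060). The 3′ to 5′ signal ratio of the Gapdh control was also higher in N_dCKO (0.797 to 0.834) than in WT (0.752 to 0.786), without overlap.

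Ifi27 was the only gene of the set that was called. The Ifi27 signal fell in N_dCKO to 62.4% of WT, and this was the one call among the 6 genes tested in that comparison. Ifit1 (-0.75 ± 0.41), Oasl2 (-0.70 ± 0.28) and Bst2 (-0.62 ± 0.20) differed from WT by like amounts, with a larger SE than Ifi27. Ifit3 differed least, by -0.18 ± 0.24. Across all genes, 0.943% were called in this comparison and 0.694% were called lower. On WT arrays 1 to 4, Ifi27 read 1092, 1408, 1264 and 1017. APP_KO arrays read 1009, 1136, 1081 and 976, and APLP2_KO arrays 971, 1007, 1003 and 1060. N_dCKO arrays read 664, 639, 755 and 917. All 4 N_dCKO arrays lay below all 12 others, N_dCKO array 4 came nearest to them, and the WT range overlapped both single knockouts.

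The difference between N_dCKO and WT for Ifi27 was -0.68 ± 0.11 on the log2 scale (95% confidence interval -0.90 to -0.46, limma adjusted p = 0.00229). N_dCKO was also lower than APP_KO, by -0.51 ± 0.11 (limma adjusted p = 0.0382, against 0.351% of all genes called). That call was lost when any of 7 of the 8 arrays compared was left out and kept only without N_dCKO array 4, with limma adjusted p from 0.0137 to 0.159. Against APLP2_KO the difference was -0.45 ± 0.11 and was not called (limma adjusted p = 0.151). Its arrays were lower without overlap there, as for 2.98% of all genes. The single knockouts differed from WT by -0.18 ± 0.11 (APP_KO, limma adjusted p = 0.9997) and -0.23 ± 0.11 (APLP2_KO, limma adjusted p = 0.647). These comparisons share arrays, so they do not support each other. Whether the double loss differed from the sum of the single losses was tested as an interaction, which was -0.28 ± 0.15 for Ifi27 (limma adjusted p = 0.9997). By its title N_dCKO is conditional, and the single knockouts are not labelled so. The interaction therefore also holds any difference in the kind of deletion. Ordered by mean signal, Ifi27 went from WT (1195 ± 175) to APP_KO (1051 ± 71.9), APLP2_KO (1010 ± 36.9) and N_dCKO (744 ± 126), and only the step to N_dCKO separated neighbours without overlap.

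The second Ifi27 probe set gave a weaker separation. Its name ends in _s_at, which marks probes shared by more than 1 transcript. It read 718, 902, 751 and 480 on WT arrays 1 to 4, and 463, 598, 530 and 366 on N_dCKO arrays. N_dCKO array 4, the highest of its group on the first probe set (917), was the lowest here. WT array 4 fell inside the N_dCKO range, so the groups overlapped. In the fit over all probe sets its difference between N_dCKO and WT was -0.52 ± 0.15 (limma adjusted p = 0.234). The first probe set kept its call in that fit (limma adjusted p = 0.00472), where 0.215% of all probe sets were called.

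**Figure D1:**
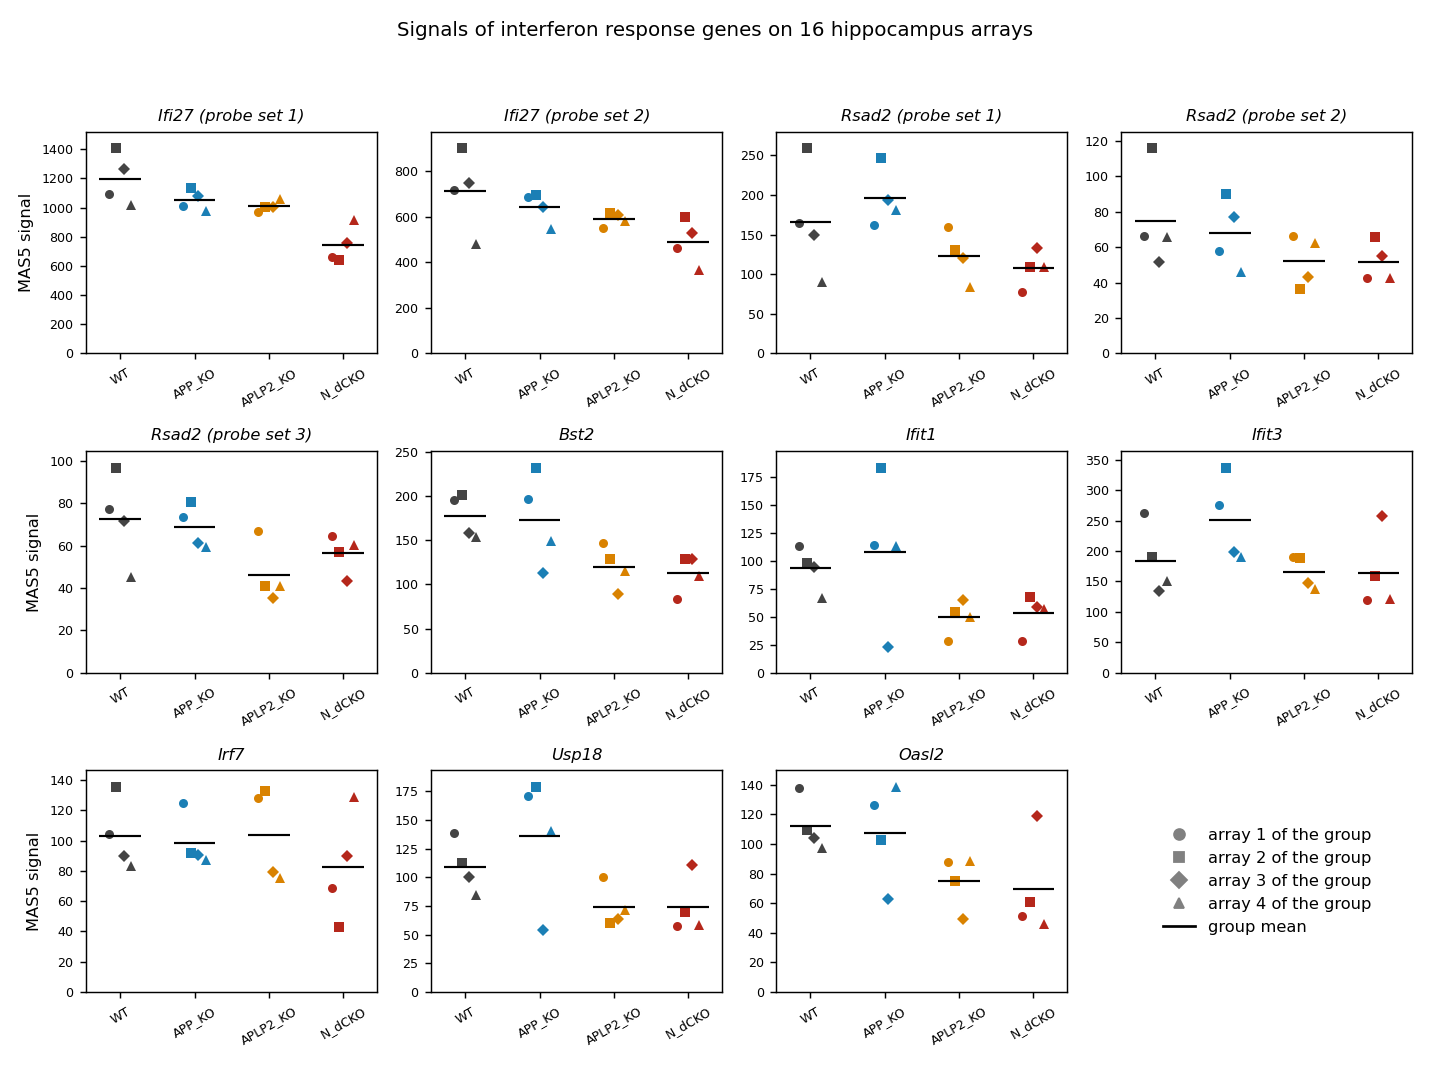
MAS5 signal (linear scale, y axis from 0) of the 11 probe sets in the 4 genotype groups (x axis), with 1 point per array, the point's shape giving the array number and a bar at the group mean. For the first Ifi27 probe set the N_dCKO points (639 to 917) lie below all others, while most other panels show groups that overlap.

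Marker levels of several cell types also differed between N_dCKO and WT, some of them in the single knockouts as well. Microglia markers (14 of 15 on the array) had a mean log2 signal of 9.59 ± 0.05 in WT and 9.23 ± 0.10 in N_dCKO. APP_KO had 9.40 ± 0.08 and APLP2_KO 9.35 ± 0.04, and all arrays of these groups also lay below all WT arrays. Of the 14 markers, 14 were lower than WT in APP_KO and 13 in APLP2_KO, with 0 called (limma). All 14 were lower in N_dCKO than in WT and 5 were called, with summed signals of 12838 to 13815 against 16374 to 17139. In bulk tissue, fewer cells of a type and less RNA per cell cannot be told apart. Oligodendrocyte markers (5 of 6 on the array) were also lower, with means of 13.1 ± 0.15 in WT and 12.6 ± 0.18 in N_dCKO. Of these, 5 of 5 were lower and 1 was called. Their mean was 12.7 ± 0.30 in APP_KO and 13.1 ± 0.08 in APLP2_KO, so the lower level was not particular to N_dCKO. Ependymal markers (6 of 6 on the array) had means of 7.08 ± 0.19 in WT and 6.67 ± 0.17 in N_dCKO, and of the 5 tested, 4 were lower and 0 were called (limma). Astrocyte markers (6 of 6 on the array) had higher means in N_dCKO (12.43 to 12.46) than in WT (12.27 to 12.36), without overlap. In this comparison 0 were called (limma). APP_KO (12.42 to 12.51) and APLP2_KO (12.39 to 12.45) also lay above WT without overlap. Endothelial markers (8 of 10 on the array) differed little, with means of 9.53 ± 0.05 in WT and 9.51 ± 0.01 in N_dCKO and 0 called (limma). Markers of lymphocytes and monocytes (6 of 8 on the array) did not pass the filter for brightness on these arrays, with summed signals of 110 to 239.

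The choroid plexus markers fell in N_dCKO against WT for 10 of 10 genes. N_dCKO array 3 had a choroid plexus mean of 8.71, above APP_KO array 1 (8.62) and below every WT array (9.08 to 10.1), and it read 755 for Ifi27, also below every WT array. With that array as the only one of its group, Ifi27 differed from WT by -0.64 ± 0.14 and was not called (limma adjusted p = 0.0836). Here the lone array is assumed to vary like the other groups. Fitted beside the choroid plexus mean, the difference was -0.56 ± 0.19 (limma adjusted p = 0.519), and fitted beside the Gapdh ratio it was -0.61 ± 0.14 (limma adjusted p = 0.104). The call was lost under both, with a larger SE than the 0.11 of the main fit. Each of these measures separated N_dCKO from WT without overlap, so the fits cannot tell it apart from genotype. The part of cell content and RNA quality in the Ifi27 difference was not tested beyond these values.

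**Figure D2:**
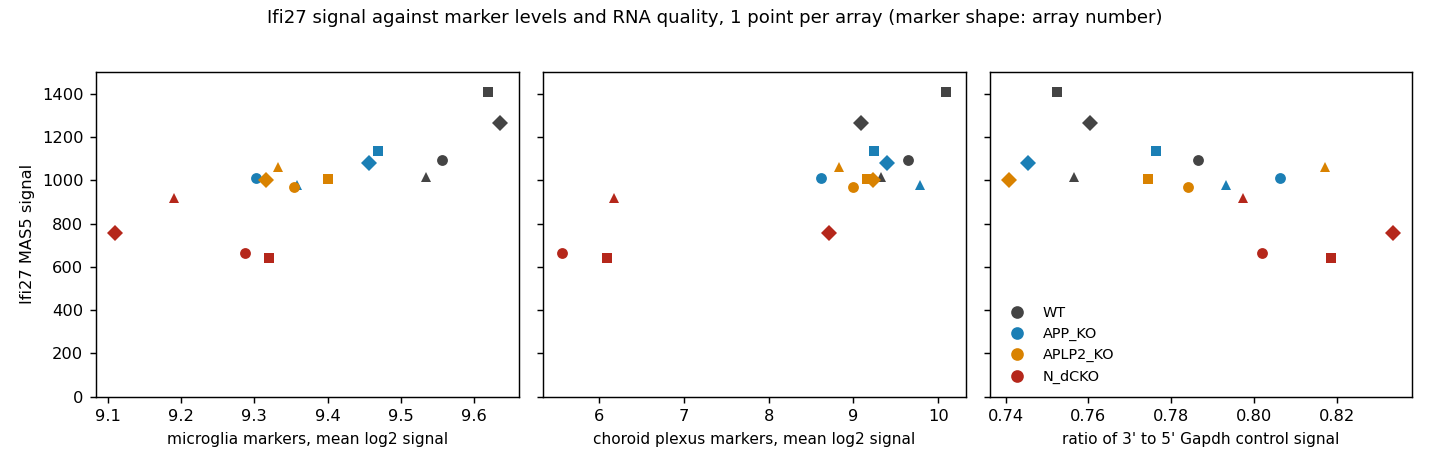
Ifi27 MAS5 signal (y axis, linear from 0) on each of the 16 arrays against the mean log2 signal of the microglia markers, that of the choroid plexus markers and the 3′ to 5′ Gapdh ratio (x axes), coloured by genotype with the shape giving the array number. N_dCKO array 3 (red diamond) has a choroid plexus mean of 8.71 and an Ifi27 signal of 755, with the other 3 N_dCKO arrays far to the left in that panel.

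Irf7, the transcription factor of the set, showed no separation by genotype. It read 104, 135, 89.9 and 83.4 on WT arrays 1 to 4, and 68.4, 42.9, 89.6 and 129 on N_dCKO arrays. N_dCKO held both the lowest value of all 16 arrays and one near the highest. The difference of -0.36 ± 0.26 was not called (limma adjusted p = 0.625), and the single knockouts were at -0.05 ± 0.26 (APP_KO) and -0.01 ± 0.26 (APLP2_KO).

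Bst2 was lower without overlap in 2 comparisons with WT but passed the test in neither. It read 195, 202, 158 and 154 in WT, 197, 233, 113 and 149 in APP_KO, 146, 129, 89.7 and 116 in APLP2_KO, and 83.9, 129, 129 and 110 in N_dCKO. Every APLP2_KO and every N_dCKO array lay below every WT array, while APP_KO, from 113 to 233, overlapped all 3 other groups. The differences from WT were -0.54 ± 0.20 in APLP2_KO (limma adjusted p = 0.517) and -0.62 ± 0.20 in N_dCKO (limma adjusted p = 0.172). Among all genes, 2.69% were lower without overlap in APLP2_KO against WT and 4.46% in N_dCKO against WT. Both comparisons use the same WT arrays. Between N_dCKO and APLP2_KO, Bst2 differed by -0.08 ± 0.20 (95% confidence interval -0.50 to 0.34).

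Rsad2 was measured by 3 probe sets, of which the brightest passed the filter. That probe set read 165, 259, 149 and 89.6 in WT, 162, 246, 194 and 182 in APP_KO, 159, 130, 120 and 83.5 in APLP2_KO, and 77.9, 109, 133 and 109 in N_dCKO. WT spanned nearly the whole range of the study, from array 4 at the low end to array 2 at the top. N_dCKO lay below APP_KO without overlap, and the difference of -0.83 ± 0.25, the largest in size among the 6 genes in that comparison, was not called (limma adjusted p = 0.263). Of all genes, 2.03% were lower without overlap there. Against WT, Rsad2 differed by -0.52 ± 0.25 in N_dCKO (limma adjusted p = 0.406), -0.35 ± 0.25 in APLP2_KO and 0.30 ± 0.25 in APP_KO. The other 2 probe sets, with mean signals of 74.8 ± 28.2 and 72.7 ± 21.2 in WT, gave -0.43 ± 0.28 and -0.30 ± 0.25 for N_dCKO against WT. Neither was called.

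Ifit3 read 262, 190, 134 and 150 in WT, 276, 337, 197 and 190 in APP_KO, 189, 189, 147 and 138 in APLP2_KO, and 120, 159, 258 and 121 in N_dCKO. N_dCKO array 3 stood well above the other 3 of its group and reached into the WT range. Ifit3 differed from WT by 0.43 ± 0.24 in APP_KO (limma adjusted p = 0.996) and by -0.18 ± 0.24 in N_dCKO (limma adjusted p = 0.839).

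Ifit1, below the filter, read 113, 98.5, 94.8 and 67.1 in WT, 114, 184, 22.7 and 113 in APP_KO, 28.8, 54.3, 65.4 and 49.6 in APLP2_KO, and 28.8, 67.6, 58.7 and 56.9 in N_dCKO. APLP2_KO lay below WT without overlap, and N_dCKO overlapped WT only through its array 2, at 67.6, and WT array 4, at 67.1. APP_KO held both the highest and the lowest of the 16 values. The differences from WT were -0.83 ± 0.41 in APLP2_KO (limma adjusted p = 0.765, in a comparison with 0.0776% of all probe sets called) and -0.75 ± 0.41 in N_dCKO (limma adjusted p = 0.66).

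Oasl2, also below the filter, read 138, 110, 104 and 97.0 in WT, 126, 102, 62.9 and 138 in APP_KO, 87.9, 74.7, 49.6 and 88.6 in APLP2_KO, and 51.6, 60.5, 119 and 46.0 in N_dCKO. APLP2_KO again lay below WT without overlap. In N_dCKO, array 3 read 119, inside the WT range, and the other 3 lay below it. The differences from WT were -0.54 ± 0.28 in APLP2_KO (limma adjusted p = 0.78) and -0.70 ± 0.28 in N_dCKO (limma adjusted p = 0.476).

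Usp18, the ISG15 protease, read 139, 112, 100.2 and 84.8 in WT, 171, 179, 54.3 and 141 in APP_KO, 101, 59.9, 63.4 and 71.6 in APLP2_KO, and 57.4, 70.1, 111 and 58.7 in N_dCKO. APP_KO array 3 was the lowest of all 16 arrays although the other 3 of its group were the highest. Usp18 differed from WT by 0.20 ± 0.29 in APP_KO, -0.52 ± 0.29 in APLP2_KO and -0.53 ± 0.29 in N_dCKO, with limma adjusted p of 0.495 for the last.

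Within groups, several of these genes were high or low on the same arrays. APP_KO array 3 was the lowest of its group for Bst2, Ifit1, Usp18 and Oasl2. N_dCKO array 3 was above its group mean for 6 of the 6 genes tested, as was WT array 2, while WT array 4, APLP2_KO array 3 and N_dCKO array 1 were above it for 0 of 6. Averaged over the 6 genes, the log2 signal was 7.72 ± 0.28 in WT and 7.82 ± 0.27 in APP_KO. It was 7.43 ± 0.21 in APLP2_KO and 7.24 ± 0.27 in N_dCKO, and the arrays of any 2 groups overlapped.

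The genes and the pathway lists were chosen with earlier results of these data known, and several genes were high or low on the same arrays. The counts here and below therefore describe the set and are no test of it. Counted over the 6 genes tested, 6 were lower in N_dCKO than in WT, with a median of -0.52. Of all genes, 51.3% were lower, with a median of 0.00. Of the 6, 3 had an unadjusted p below 0.05, as did 12% of all genes. Ifit3 turned positive, at 0.0031, without WT array 1. With N_dCKO array 3 alone, Ifit3 and Usp18 were positive and the median was -0.19, and fitted beside the choroid plexus mean it was -0.03. Against APP_KO, 6 of 6 were lower in N_dCKO, with a median of -0.58, against 50.4% of all genes. There 5 of the 6 had an unadjusted p below 0.05, as did 7.71% of all genes. Against APLP2_KO the median was -0.13 and 0 were called by limma, where 0.0257% of all genes were called. An unadjusted p below 0.05 was found for 1 of the 6 and for 8.44% of all genes.

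In APLP2_KO against WT, 6 of 6 were lower with a median of -0.29, where 53.3% of all genes were lower. None was called by limma, and 0.129% of all genes were. Here 2 of the 6 and 7.43% of all genes had an unadjusted p below 0.05. In APP_KO against WT, 3 were lower and 3 higher, with a median of 0.07, and 51.7% of all genes were lower. Limma called none of them and 0.00857% of all genes. At an unadjusted p below 0.05 there were 0 of the 6 and 5.18% of all genes. For the interaction limma called 0 of 6 genes and 0% of all genes, and an unadjusted p below 0.05 was found for 0 of the 6 and 4.15% of all genes.

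Over all 11 probe sets, which the filter on brightness did not touch, 8 were lower in APP_KO, 11 in APLP2_KO and 11 in N_dCKO than in WT. Of all probe sets on the array, 43.3%, 43.3% and 43.9% were lower in these comparisons. The median differences of the 11 were -0.05, -0.43 and -0.52, and those of all probe sets were 0.03 in each. In APLP2_KO, 3 of the 11 were lower than WT without overlap (1.53% of all probe sets), and in N_dCKO 2 of the 11 (2.29%). Probe sets of 1 gene share their RNA, and the 3 comparisons share the WT arrays.

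**Figure D3:**
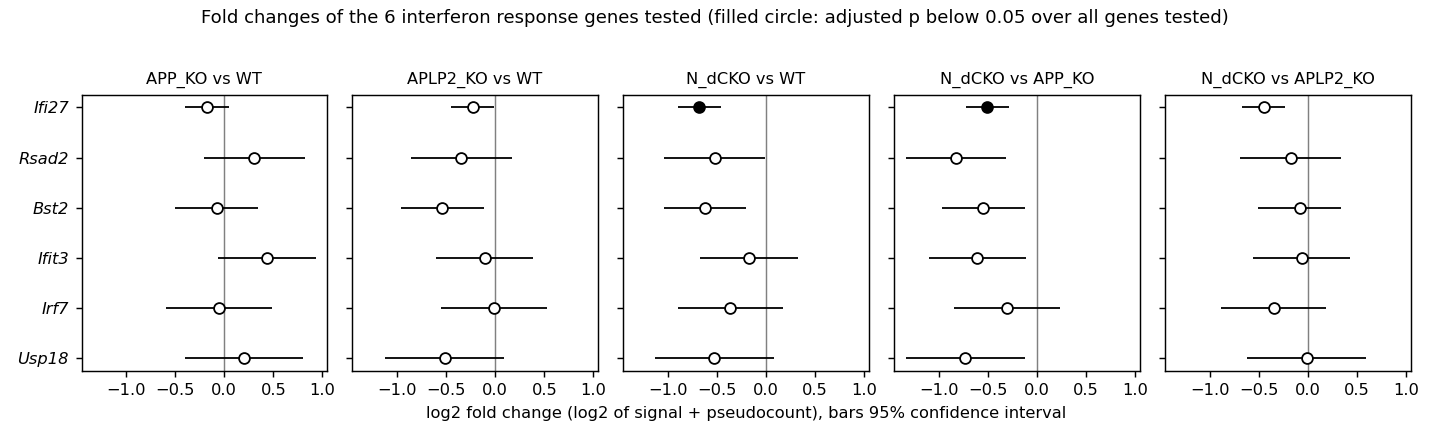
Log2 fold changes of log2(signal + 9) for the 6 genes that passed the filter in 5 comparisons, with 95% confidence intervals as bars and filled circles where the adjusted p was below 0.05. The filled points are Ifi27 in N_dCKO against WT (-0.68) and against APP_KO (-0.51), and every other interval belongs to a gene that was not called.

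The rest of the pathway was described from lists by role, holding 73 further genes, of which 69 were on the array and 47 were tested. Limma called 0 of 47 in each of the 6 comparisons. In N_dCKO against WT, 31 of 47 were lower with a median of -0.09, and 9 had an unadjusted p below 0.05, against 12% of all genes. Arrays did not overlap for 3 of the 47. Of all genes, 4.46% were lower and 2.9% higher without overlap. The 31 and the median include genes of opposite direction at the receptor.

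Ifnar1, the first chain of the type I receptor, read 439, 405, 433 and 369 in WT and 502, 524, 566 and 560 in N_dCKO. All N_dCKO arrays lay above all WT arrays. The difference of 0.38 ± 0.10 was not called (limma adjusted p = 0.0724), and 2.9% of all genes were higher without overlap in this comparison. Ifnar1 differed from WT by 0.15 ± 0.10 in APP_KO (limma adjusted p = 0.9997) and by 0.31 ± 0.10 in APLP2_KO (limma adjusted p = 0.407), and all of these comparisons use the same WT arrays. Ifnar2, the partner chain, lay lower without overlap, as did 4.46% of all genes. Ifnar2 read 439, 474, 428 and 466 in WT and 424, 348, 321 and 354 in N_dCKO, a difference of -0.32 ± 0.11 (limma adjusted p = 0.205). Ifnar1 and Ifnar2 both lie on chromosome 16, as does App, which N_dCKO is labelled as lacking. A difference linked to the altered App locus cannot be told apart here from a change of the pathway, and this was not tested.

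Below the receptor, the JAK-STAT list (6 of 7 tested) had a median of 0.00 in N_dCKO against WT. The kinase gene Tyk2 was at 0.12 ± 0.13 and Stat2 at -0.12 ± 0.18. The interferon regulatory factors other than Irf7 (5 of 5 tested) had a median of -0.05, with Irf5 at 0.18 ± 0.17 and Irf3 at -0.11 ± 0.12. Among sensors of foreign RNA and DNA (6 of 10 tested, median -0.01), Tlr3 was at 0.20 ± 0.12 and Ifih1, which encodes the RNA sensor MDA5, at -0.19 ± 0.16. None of the 4 interferon genes listed was tested, and 2 of them were on the array.

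The antiviral effectors (16 of 26 tested) had 12 differences below 0, with a median of -0.15, and none was called in N_dCKO against WT. Lgals3bp, a secreted glycoprotein, read 402, 344, 240 and 253 in WT and 165, 232, 249 and 143 in N_dCKO. Only N_dCKO array 3 reached into the WT range. The difference was -0.63 ± 0.18 (limma adjusted p = 0.11). Ifitm3, a membrane protein that blocks viral entry, read 1249, 1059, 917 and 1020 in WT and 760, 789, 861 and 802 in N_dCKO. These did not overlap, and 4.46% of all genes were lower without overlap there. The Ifitm3 difference was -0.39 ± 0.12 (limma adjusted p = 0.116). Of the 9 GTPases and chemokines induced by interferon gamma, the 6 tested were all GTPases. These 6 had differences below 0 and none was called, with a median of -0.41, Gbp2 at -0.58 ± 0.27 and Gbp3 at -0.55 ± 0.24. On the ISG15 conjugation list 1 of 3 genes was tested, Herc6, at 0.08 ± 0.22. Of the negative regulators (3 of 5 tested, median -0.09), Ptpn2, a phosphatase acting on JAK kinases, was at -0.19 ± 0.07 and Usp25 at 0.16 ± 0.11.

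**Figure D4:**
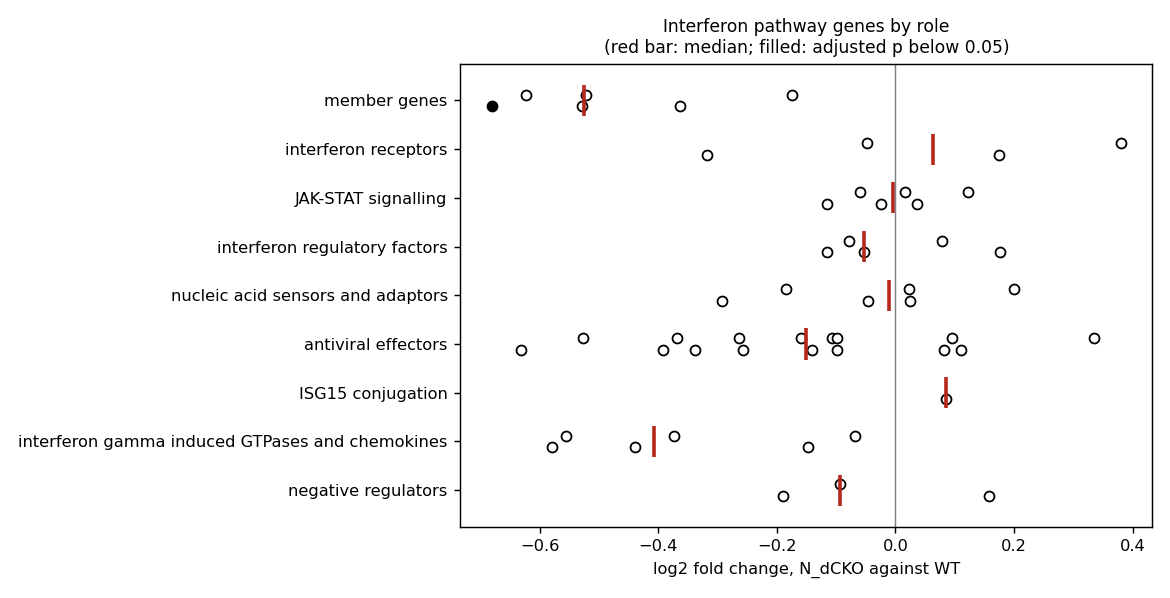
Log2 fold change of N_dCKO against WT (x axis) for each tested gene of the interferon pathway, 1 row per role and the 6 genes of the set in the top row, with a red bar at each row's median and filled circles where the adjusted p was below 0.05. Ifi27, at -0.68, is the only filled point, the receptor row runs from -0.32 to 0.38, and the 6 open points of the interferon gamma row, all GTPases, lie below 0.

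The tested genes whose centred log2 signals over the 16 arrays lay nearest to each gene were also listed, by root mean square difference. The nearest to Ifi27 were Rhog, Ctsc and Car12, each at 0.16, where the median over all genes was 0.32. Ctsc encodes the lysosomal protease cathepsin C and Car12 a carbonic anhydrase. Their differences between N_dCKO and WT were -0.44 (Rhog), -0.35 (Ctsc) and -0.70 (Car12). All of them were called (limma adjusted p = 0.028, 0.0381 and 0.00368), where 0.943% of all genes were, and none is on the pathway lists. These genes were chosen for their likeness to Ifi27 over the same arrays, so the shared direction follows from the choice. For Bst2 the nearest were Lgals3bp, Rtp4 and Xaf1, all at 0.22 and all on the pathway lists, and for Usp18 they were Xaf1, Bst2 and Rtp4, at 0.26 to 0.28. The nearest to Rsad2 were Mccc1, Smagp and Katnal2, to Ifit3 Bbs12, Degs2 and Apoc1, and to Irf7 Mon1b, Nsrp1 and Shmt1, none of them on the lists. In all, 4 of 16 distinct neighbours were genes of the set or of the pathway lists, which made up 0.454% of the genes tested. All 6 neighbour places that such genes took belonged to Bst2 and Usp18.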

How the data were processed

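Total RNA of 16 hippocampus samples was hybridised to Affymetrix arrays after Trizol extraction and biotin labelling, per the labels' protocols. The submitters' processing notes name MAS5, without a version, so the deposited values are linear signal intensity values that the authors summarised per probe set. A trimmed mean (2%) of 500 on all arrays marks the authors' global scaling, which was kept as it was. Median signals were 79.7 to 102, no value was at or below 0, and the number of arrays limits the precision.

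Probe sets were named from the platform annotation: 34958 had 1 symbol, 932 several and 9211 none, and probe sets with several were given no name. RefSeq (GRCm38.p6) matched 34754 of them and changed 0 symbols. Signals were transformed as log2(signal + 9), the pseudocount being set from the median signal of 91.7. Probe sets at or above the median mean log2 signal were kept (22551), with the brightest per gene (11665 genes). limma 3.58.1 in R 4.3.3, with the package data.table (version 1.17.8) for reading, fitted 1 mean per group over all 16 arrays with a variance trend, giving 12 residual degrees of freedom and 19.4 after moderation. Tests were two-sided. The fit was tested on simulated data.

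The text names all genes of the set, per pathway list the 2 with the smallest unadjusted p in N_dCKO against WT, and the 3 nearest genes of each tested member. The members and lists were chosen with earlier results of these data known. Alternatives covered scaling, pseudocount, filter, probe set choice, variance model, covariates, the replicate block and leaving out each array. N_dCKO array 3 alone in its group was added after seeing the data.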

Additional observations from a re-analysis of the deposited data

Results flagged for a closer look

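Irf7 on APP_KO array 1 read 125, while the other 3 arrays of that group read 86.9 to 91.8. The gap to its nearest neighbour, as a share of the group's range, was above Dixon's critical value for 4 samples. Over the 11 probe sets and 4 groups, 1 of 44 such groups stood out, and chance gives about 5% of them.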

How the results depend on the processing

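Ifi27 in N_dCKO against WT kept its direction under every alternative run (-0.78 to -0.56). It was called in all 8 fits that left out 1 array (-0.78 to -0.60, adjusted p 0.000733 to 0.0123), and not called with the choroid plexus covariate (-0.56), the Gapdh covariate (-0.61) or N_dCKO array 3 alone (-0.64), which each left 0 genes of the set called. Against APP_KO, 0 were called with median centring, no filter, the 75th percentile filter (1 gene of the set left), no variance trend, probe sets averaged or tested singly, both covariates, only the groups compared and N_dCKO array 3 alone, and 0 to 1 when 1 array was left out. Against APLP2_KO, array weights called 1, Ifi27 (-0.49, limma adjusted p = 0.049). Each covariate separated N_dCKO from WT without overlap, so those fits cannot tell it apart from genotype. Why these calls moved was not tested. All genes called in N_dCKO against WT numbered 110, 5 to 198 under other settings and 45 to 115 without 1 array.

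Uncalled fold changes turned sign in 49 cases. With the choroid plexus covariate, Ifit3 and Irf7 in APLP2_KO against WT were at 0.024 and 0.038. In N_dCKO against WT, Rsad2, Ifit3 and Usp18 were at 0.19, 0.62 and 0.016, and against APP_KO Ifit3 was at 0.11. Against APLP2_KO, Rsad2, Bst2, Ifit3 and Usp18 were at 0.42, 0.11, 0.59 and 0.44, and for the interaction at 0.047, 0.16, 0.083 and 0.19. With N_dCKO array 3 alone, Ifit3 and Usp18 against WT were at 0.52 and 0.042, and Ifit3 against APP_KO at 0.082. Against APLP2_KO, Rsad2, Bst2, Ifit3 and Usp18 were at 0.13, 0.12, 0.62 and 0.56, and for the interaction Bst2, Ifit3 and Usp18 at 0.19, 0.19 and 0.36. The Bst2 interaction was 0.011 with quantile normalization and 0.073 with median centring. Irf7 in APLP2_KO was at 0.029 with array weights, and Usp18 in APP_KO at -0.015 with the Gapdh covariate. Leaving out 1 array gave ranges across 0 for Bst2 (-0.23 to 0.10) and Irf7 (-0.16 to 0.076) in APP_KO, Ifit3 (-0.24 to 0.070) and Irf7 (-0.14 to 0.12) in APLP2_KO, and Ifit3 in N_dCKO against WT (-0.41 to 0.0031). Against APLP2_KO they were -0.21 to 0.042 for Bst2, -0.30 to 0.055 for Ifit3 and -0.20 to 0.13 for Usp18, and for the Bst2 interaction -0.18 to 0.14.

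With the replicate number as a block, the count of called genes of the set changed in no comparison, Ifi27 being at -0.68 against WT (limma adjusted p = 0.00271) and -0.51 against APP_KO (limma adjusted p = 0.0404). All genes called rose from 110 to 198 in N_dCKO against WT and from 15 to 30 in APLP2_KO. Same-numbered arrays had correlations of deviations from -0.02 to 0.30, with means by number of 0.065 to 0.10. Arrays of different numbers and groups had a mean of -0.03. As 16 of 16 arrays correlated best with their own number, samples of the same number were more alike. What the number stands for is not given by the labels, and the main fit left it out. Ifit1 and Oasl2 lay below the brightness filter, and 4 arrays a group limit what could be called.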
